A study of Mus musculus with 4 samples.

Results

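The genes described here are 7 transcriptional targets of fibroblast growth factor (FGF) and ERK signalling: the Ets transcription factors Etv1, Etv4 and Etv5, and the feedback inhibitors Spry2, Spry4, Dusp6 and Il17rd. They were chosen by name as known ERK-responsive genes, with earlier results of these data known, so that their pattern is a description and not independent evidence. All 7 are among the 9997 gene symbols of the deposited table, and all 7 are among the 5885 symbols that reached 1 FPKM in at least 1 library. FPKM is the number of sequenced fragments scaled by transcript length and by the library's depth, so that levels of different genes can be set side by side.

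RNA was sequenced from embryoid bodies (floating clumps of differentiating embryonic stem cells) of the mouse line ES-E14TG2a. The 4 groups had 1 library each. They were control embryoid bodies, and embryoid bodies given all-trans retinoic acid (ATRA) and labelled 0, 6 and 10 days. ATRA is the signalling form of vitamin A, and embryoid bodies received 5 µM of it on culture days 4 and 6. Before aggregation all cells were kept in serum with leukemia inhibitory factor, the cytokine that holds mouse embryonic stem cells undifferentiated, and the recipe of the embryoid body medium lists serum without it. After 8 days embryoid bodies were moved from suspension to dishes coated with polyornithine and laminin. The labels do not say from which day the 0, 6 and 10 days are counted, how old the control culture was, or which libraries were taken after the transfer. In every comparison with the control, ATRA and culture age therefore cannot be told apart. Between the ATRA libraries, days and the transfer to dishes cannot be told apart either.

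FGF ligands bind receptor tyrosine kinases on the cell surface and start a relay through RAS, RAF and MEK that ends in the kinases called ERK. Active ERK raises transcription of the PEA3 group of Ets factors, Etv1, Etv4 and Etv5, which carry the signal to further genes. It also induces its own inhibitors: Sprouty proteins act on the relay near the receptor, Dusp6 is a phosphatase that removes the activating phosphates from ERK in the cytoplasm, and Il17rd (Sef) is a membrane protein that restrains the pathway at the receptor and further down. Because these genes follow ERK activity in many embryonic tissues, their RNA is widely read as a record of FGF signalling. In mouse embryonic stem cells the same pathway, driven largely by FGF4 that the cells make themselves, moves cells out of the naive state. The genes for FGF4 and for the receptors Fgfr1, Fgfr2 and Fgfr3 were not analysed here.

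With 1 library per group there is no replicate spread and no test, and every statement describes these libraries. Depth was roughly estimated from what a single fragment was worth in FPKM. The estimates were 24500000 fragments in the control, and 26400000, 25200000 and 27300000 fragments at 0, 6 and 10 days. They were read from a fixed window of values, which bounds them in advance and does not establish the true depth. All fragment numbers and counting errors below rest on them. Differences are on the log2(FPKM + 1) scale, the named library minus the one it is set against, and genes that differed by 2-fold or more on that scale were called, which understates changes of genes with low values. The table covers chromosomes 1 and 10 to 18 almost exclusively. Rescaling the libraries moved the median gene of the 0-day comparison with the control by 0.11 with median-ratio factors and by 0.18 with upper-quartile factors. The direction of all differences of the 7 genes held under both, except that of Spry4 at 10 against 6 days.

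All 7 feedback targets had their highest level in control embryoid bodies, which was true of 38.2% of the tested genes. At 0 days 6 of the 7 were 2-fold or more lower than in the control, where 12.8% of all tested genes were; 9.48% were with median-ratio and 8.45% with upper-quartile scaling, where Dusp6 was no longer called. The median difference of the 7 was -2.00, against -0.04 for all tested genes. None of the 7 was 2-fold higher, as 12.2% were. At 4-fold, 3 were lower (2.60% of tested genes) and none was higher (3.26%). Etv4 and Spry4 differed most, at 1.02% and 2.10% of their control FPKM. In bulk RNA such as this, fewer cells of a type and less RNA per cell cannot be told apart.

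**Figure D1:**
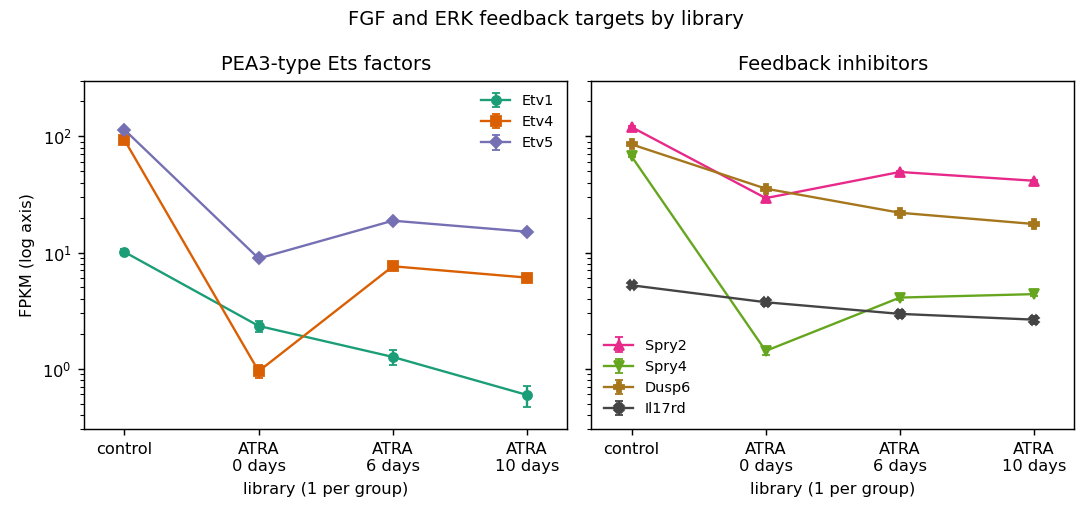
FPKM on a log axis in the 4 libraries, with the 3 Ets factors on the left and the 4 feedback inhibitors on the right; each point is 1 library, and bars are the estimated counting error of that library alone (1 SD). Every line is highest at the control, and Etv4, Etv5, Spry2 and Spry4 have their lowest point at 0 days.

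Etv4 (mm10 chromosome 11, 101769742 to 101785371, minus strand) encodes a PEA3-group activator that is among the most ERK-sensitive genes known. Its level was 93.1 FPKM in control embryoid bodies, and 0.949, 7.61 and 6.08 FPKM after ATRA at 0, 6 and 10 days. The control was far above the rest, and the 0-day library was the lowest, with an estimated 58.4 fragments behind its value and a counting error of 13.1%. At 0 days Etv4 was 98.1-fold lower than in the control by the ratio of FPKM, a difference of -5.59 on the log2(FPKM + 1) scale. Only 13 of the 5885 tested genes had a lower difference.

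Etv5 (chromosome 16, 22381309 to 22439719, minus strand), the closest relative of Etv4 in this set, stood at 114.1, 8.89, 18.8 and 15.1 FPKM in the control and at 0, 6 and 10 days. It was the most abundant of the 3 Ets factors in every library. At 0 days it was 12.8-fold lower than in the control by FPKM, a log2 difference of -3.54.

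Etv1 (chromosome 12, 38779380 to 38870484, plus strand), the third PEA3-group factor, had lower levels throughout, at 10.1, 2.33, 1.26 and 0.593 FPKM in the same order. Unlike the other 2 Ets factors, it was lower at each later library, and its lowest value was at 10 days. That value rests on an estimated 23.8 fragments, with a counting error of 20.5%, the largest of the 28 values of the set. Annotated full-length coding transcripts of Etv1 range from 1474 to 6576 nt, and its FPKM depends on how the authors' software shared fragments among them.

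Spry2 (chromosome 14, 105891947 to 105896819, minus strand), a Sprouty inhibitor made from a short gene with 2 exons, stood at 120.4, 29.4, 49.4 and 41.5 FPKM. It was the most abundant of the 7 in the control, at 6 days and at 10 days. At 0 days it was 4.09-fold lower than in the control by FPKM, with a log2 difference of -2.00 that is just short of 4-fold on the log2(FPKM + 1) scale.

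Spry4 (chromosome 18, 38586247 to 38601415, minus strand), a Sprouty with the same 2-exon layout, stood at 67.4, 1.42, 4.09 and 4.38 FPKM. At 0 days it was 47.6-fold lower than in the control by FPKM, with a log2 difference of -4.82, and 17 tested genes had a lower difference. All 3 ATRA libraries were far under the control, and the 0-day library was the lowest.

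Dusp6 (chromosome 10, 99263231 to 99267489, plus strand), the ERK phosphatase, stood at 85.5, 35.5, 22.0 and 17.6 FPKM. It was the most abundant of the 7 at 0 days, when its difference from the control, -1.25, was far smaller than those of Etv4, Etv5 and Spry4. Under upper-quartile scaling this difference fell just short of 2-fold.

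Il17rd (chromosome 14, 27038941 to 27107286, plus strand), the membrane inhibitor Sef, was the exception, at 5.22, 3.73, 2.96 and 2.64 FPKM. It was highest in the control and lowest at 10 days, but its difference at 0 days, -0.39, did not reach 2-fold. Of all tested genes 33.6% had a lower difference.

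**Figure D2:**
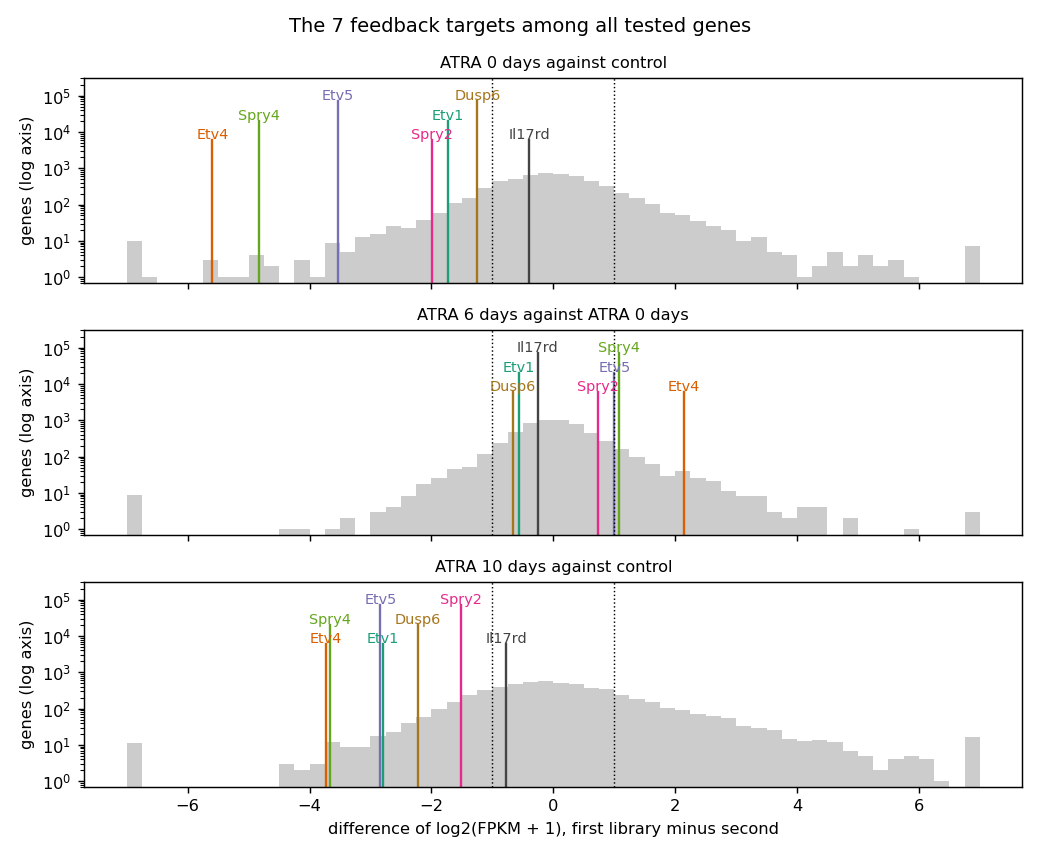
Histograms of the difference of log2(FPKM + 1) for 5885 tested genes (gene number on a log axis; differences beyond 7 in size are stacked in the outermost bars) at 0 days against the control, at 6 against 0 days and at 10 days against the control. Coloured lines mark the 7 feedback targets and dotted lines mark 2-fold. At 0 days Etv4, Spry4 and Etv5 lie in the far left tail, and at 6 against 0 days the 7 lie on both sides of 0.

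The upstream sequence is shown for Dusp6, Spry2 and Etv5, the 3 most abundant of the genes that have a RefSeq start window. RefSeq windows (GRCm38.p6, the mm10 assembly) matched 5 of the 7 by symbol: Etv1, Etv5, Spry2, Dusp6 and Il17rd, with 7 windows in all, each from 250 bases before to 50 after a start. The Etv5 stretch shown precedes an inner start and lies within the gene span given above. The 250 bases before a start are printed below 5′ to 3′ on the gene's strand, with the Ets core letters GGAA, or TTCC where the core is on the other strand, in capitals.
Dusp6, chr10:99262981-99263230, plus strand: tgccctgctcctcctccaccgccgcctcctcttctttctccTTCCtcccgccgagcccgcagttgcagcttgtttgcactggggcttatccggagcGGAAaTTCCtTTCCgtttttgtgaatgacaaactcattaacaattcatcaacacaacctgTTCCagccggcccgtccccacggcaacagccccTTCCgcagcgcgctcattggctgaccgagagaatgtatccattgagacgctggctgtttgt
Spry2, chr14:105896820-105897069, minus strand: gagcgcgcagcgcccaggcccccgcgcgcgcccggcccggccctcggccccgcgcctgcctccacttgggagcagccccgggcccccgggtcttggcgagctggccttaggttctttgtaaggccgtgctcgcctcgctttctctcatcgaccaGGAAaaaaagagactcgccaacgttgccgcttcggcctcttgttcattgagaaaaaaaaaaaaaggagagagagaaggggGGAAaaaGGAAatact
Etv5, chr16:22438369-22438618, minus strand: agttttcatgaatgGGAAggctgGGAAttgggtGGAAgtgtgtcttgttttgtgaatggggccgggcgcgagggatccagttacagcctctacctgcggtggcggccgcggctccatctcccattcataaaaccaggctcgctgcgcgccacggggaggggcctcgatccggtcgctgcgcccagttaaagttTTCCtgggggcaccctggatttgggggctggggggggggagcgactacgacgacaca

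The search for GGAA covered both strands of the whole windows. Dusp6 had 6 matches, all before the start, Spry2 had 5, and the Etv5 window shown had 6. The other Etv5 window, at the outer end of the gene, had 0, the 2 windows of Etv1 had 5 and 1, and that of Il17rd had 4. The median over 32851 RefSeq windows of this length was 3 matches, with quartiles of 2 and 5, and 96.0% of the windows held at least 1. The longer Ets letters CCGGAA, which contain GGAA, were in 1 of the 7 windows, that of Spry2, where the match begins at base 34 after the start, beyond the bases printed; 14.9% of all windows hold it. Neither the AP-1 letters TGANTCA, in 7.81% of all windows, nor the CArG box that serum response factor binds, in 1.63%, was in any of the 7. These letters describe the windows and show no binding.

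At 6 days against 0 days the set divided. Etv4, Etv5 and Spry4 were 2-fold or more higher, where 8.22% of all tested genes were, and none of the 7 was 2-fold lower, where 4.88% were. At 4-fold, 1 was higher (2.26% of tested genes) and none was lower (0.799%). Etv4 differed most, with 7.61 FPKM at 6 days against 0.949 FPKM at 0 days, a log2 difference of 2.14 and a ratio of 8.02. Spry4 differed by 1.07. Etv5 differed by 1.00, at the limit of 2-fold, and by 0.99 under upper-quartile scaling. Spry2 was at 49.4 FPKM at 6 days against 29.4 FPKM at 0 days, a difference of 0.73 that is short of 2-fold.

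The other 3 had negative differences that did not reach 2-fold. Dusp6 was at 22.0 FPKM at 6 days against 35.5 FPKM at 0 days (-0.67), Etv1 at 1.26 against 2.33 FPKM (-0.56), and Il17rd at 2.96 against 3.73 FPKM (-0.26). All 7 differences of this step exceeded their 95% counting half-widths of 0.09 to 0.31 on the log2 scale. Those widths cover counting error only and rest on the rough depth estimates. The median of the 7 was 0.73, against 0.01 for all tested genes.

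Etv4, Etv5 and Spry4 thus were 2-fold lower at 0 days than in the control and 2-fold higher at 6 than at 0 days, which 1.70% of tested genes were. Etv1, Dusp6 and Il17rd had a lower value in each successive library, as did 12.6% of tested genes, and the other 4 had their lowest value at 0 days, as did 24.9%. The 2 comparisons share the 0-day library, so a low value there enters both. The inhibitors Spry4 and Dusp6 had different orders: Spry4 stood at 6.07% of its control FPKM at 6 days and 2.10% at 0 days, and Dusp6 at 25.7% at 6 days and 41.5% at 0 days.

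Between 10 and 6 days none of the 7 was 2-fold lower, as 0.85% of tested genes were, and none was 2-fold higher, as 3.70% were. At 4-fold these shares were 0.119% and 0.493%, with none of the 7. Differences ran from -0.50 for Etv1 to 0.08 for Spry4, with a median of -0.28 against 0.02 for all tested genes. By the ratio of FPKM Etv1 was 2.12-fold lower, at 0.593 FPKM at 10 days against 1.26 FPKM at 6 days. With a pseudocount of 0.1 its difference was -0.97. The differences of Spry4 (4.38 FPKM at 10 days against 4.09 FPKM at 6 days) and Il17rd (2.64 against 2.96 FPKM) were within their counting half-widths of 0.14 and 0.23. The sign for Spry4 turned under upper-quartile scaling, to -0.03.

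At 10 days against 0 days Etv4 (1.86) and Spry4 (1.16) were 2-fold or more higher, as 14.4% of tested genes were, and Etv1 (-1.06) was lower, as 7.60% were. None of the 7 reached 4-fold on the log2(FPKM + 1) scale, where 4.21% of tested genes were higher and 1.05% lower. By the ratio of FPKM Etv4 was 6.41-fold higher. Its difference passed 4-fold with pseudocounts of 0.5 (2.18) and 0.1 (2.56). Dusp6 was at 17.6 FPKM at 10 days against 35.5 FPKM at 0 days. Its difference of -0.97 passed 2-fold with a pseudocount of 0.1 (-1.01) and under upper-quartile scaling (-1.12).

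The later libraries stayed under the control. At 6 days 6 of the 7 were 2-fold or more lower than in the control, where 12.5% of tested genes were, and at 10 days again 6 of 7, where 17.1% were. None was 2-fold higher, as 15.3% of tested genes were at 6 days and 19.6% at 10 days. At 4-fold, 4 of the 7 were lower at 6 days (2.48% of tested genes) and 5 at 10 days (3.21%), and none was higher (5.35% and 7.97%). Etv1, Etv4, Etv5, Spry2, Spry4 and Dusp6 were 2-fold lower in all 3 ATRA libraries, as were 7.09% of tested genes. These comparisons share the control library and are not independent of each other. The median of the 7 was -2.29 at 6 days and -2.80 at 10 days, against -0.07 and -0.04 for all tested genes.

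The order of the differences was not the same in all ATRA libraries. At 10 days Etv4 (-3.73) and Spry4 (-3.67) still differed most from the control on the log2(FPKM + 1) scale. Etv5 (-2.84), Etv1 (-2.80), Dusp6 (-2.22), Spry2 (-1.51) and Il17rd (-0.77) followed. By the ratio of FPKM Etv1 differed most, 17.0-fold lower, against 15.4-fold for Spry4, 15.3-fold for Etv4 and 7.55-fold for Etv5. Etv1 was then at 5.89% of its control FPKM, Etv4 at 6.53% and Spry4 at 6.51%. Spry2 kept the largest share of the 6 called genes, at 34.5%, and Il17rd was at 50.5%.

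Within the families the proportions shifted. The summed FPKM of Etv1, Etv4 and Etv5 was 217 in control embryoid bodies, and 12.2, 27.7 and 21.8 after ATRA at 0, 6 and 10 days. Etv4 made up 42.9% of that sum in the control and 7.80%, 27.5% and 27.9% of it in the ATRA libraries, in the same order. Etv5 held between 68.0% and 73.1% in the ATRA libraries and 52.5% in the control, and Etv1 had its largest share, 19.2%, at 0 days. Spry2 and Spry4 together had 188 FPKM in the control and 30.9, 53.5 and 45.9 FPKM in the ATRA libraries. Spry4 held 35.9% of that sum in the control and 4.59%, 7.64% and 9.56% at 0, 6 and 10 days, so that Sprouty RNA in the ATRA libraries was nearly all Spry2 among these 2 genes.

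**Figure D3:**
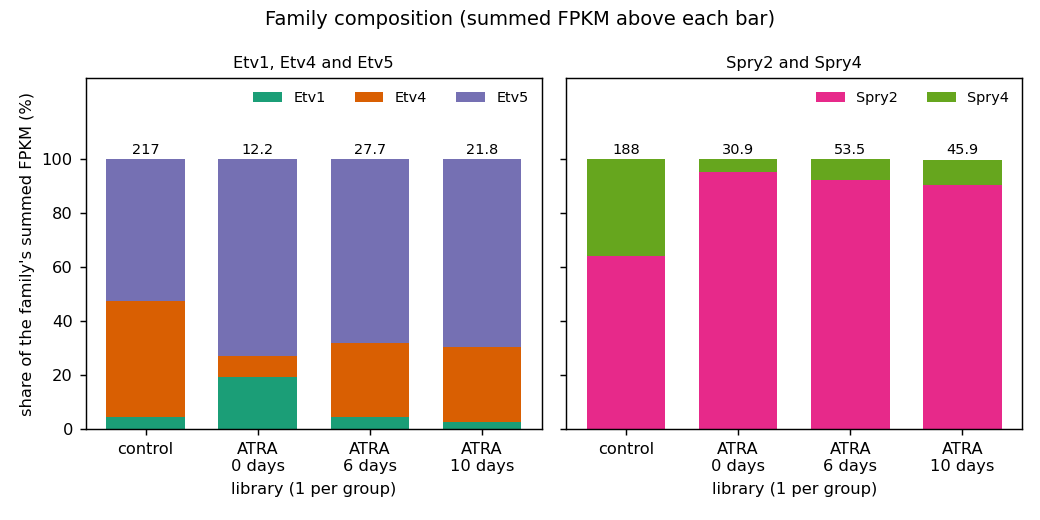
Share of the summed FPKM in percent held by each gene of the Ets group (left) and of the 2 Sprouty genes (right) in the 4 libraries, with the summed FPKM printed above each bar. The Etv4 share is 7.80% at 0 days and 42.9% in the control, and the Spry4 share is under 10% in all ATRA libraries and 35.9% in the control.

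Profiles of the 7 over the 4 libraries, each centred on its own mean log2(FPKM + 1), were compared by their root mean square difference. The nearest pair was Etv1 and Dusp6 (0.22), followed by Etv4 and Spry4 (0.39). These distances depend on adding 1, which flattens the profiles of genes with low values such as Etv1. At 10 days against the control Etv1 and Dusp6 differed by -2.80 and -2.22 on this scale, and by -3.88 and -2.28 with a pseudocount of 0.1. Etv4 and Il17rd were farthest apart (1.84). Among 4268 other genes that reached 5 FPKM in some library, the 5 nearest to the mean profile of the 7 were Nmnat2 (0.06), Prdm14 (0.09), Zscan10 (0.13), Rnf125 (0.14) and F2rl1 (0.14). Prdm14, a chromatin regulator that restrains FGF receptor signalling in naive embryonic stem cells, stood at 9.64, 0.456, 1.37 and 1.04 FPKM in the control and at 0, 6 and 10 days.

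Of single genes, Etv4 was nearest to Tcl1 (0.19) and Krt17 (0.28), Etv5 to Fam129a (0.16) and Ildr1 (0.18), and Etv1 to Helb (0.15) and D16Ertd472e (0.16). Spry2 was nearest to Notum (0.06) and Nubp2 (0.07), Spry4 to Krt42 (0.12) and Inhbb (0.30), Dusp6 to Rrp1b (0.07) and D16Ertd472e (0.08), and Il17rd to Tsc2 and Pcbp2 (0.02 each). Tcl1, a coactivator of the kinase Akt that embryonic stem cells express, stood at 100.5 FPKM in the control and 0.905, 9.89 and 8.77 FPKM at 0, 6 and 10 days. With 4 libraries many genes come near any profile by its shape alone.

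Pluripotency markers were lower at 0 days than in the control, as most of the set was. All 8 markers in the table, of 20 on the list, were highest in the control and 2-fold or more lower at 0 days (median -3.47). Over all tested genes these shares were 38.2% and 12.8%. The summed level of the 8 markers was 2212 FPKM in the control and 183, 266 and 242 FPKM at 0, 6 and 10 days. Pou5f1 alone gave 1241, 97.4, 150.0 and 140.9 FPKM of these sums. Dppa4 (119.0, 27.8, 19.6 and 10.9 FPKM) and Tet1 (29.5, 3.76, 2.61 and 1.37 FPKM) had a lower value in each successive library. None of the 8 was at 0 in any library. Tdh, which embryonic stem cells need for threonine catabolism, had the largest difference at 0 days (-6.71) and was 4.24 higher at 6 than at 0 days, and the nuclear receptor gene Esrrb differed by -4.77 at 0 days and by 0.71 at 6 against 0 days. Tdh was at 195.3 FPKM in the control and 0.873, 34.3 and 24.8 FPKM at 0, 6 and 10 days, and Esrrb at 128.7, 3.75, 6.78 and 4.85 FPKM. Tdh was the only one of the 8 that was 2-fold higher at 6 than at 0 days, against 3 of the 7 feedback targets and 8.22% of all tested genes. Their part in the lower feedback targets was not tested.

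Most sums of markers of differentiated cells were higher in the ATRA libraries. Summed over 13 endoderm markers the level was 275 FPKM in the control and 478, 3082 and 4425 FPKM at 0, 6 and 10 days, and over 7 epithelial markers it was 204, 374, 2408 and 4054 FPKM. The sum of 11 neural markers was 9.02, 43.4, 126 and 59.5 FPKM, of 8 mesenchyme and muscle markers 16.2, 24.0, 114 and 403 FPKM, and of 5 epiblast and primitive streak markers 6.10, 0.575, 14.8 and 7.04 FPKM. Not all markers were higher at 0 days than in the control. Of 13 endoderm markers 7 were 2-fold or more higher and 1 lower, Amn (6.27 FPKM in the control, 2.56 FPKM at 0 days). Of 7 epithelial markers 4 were higher and 1 lower, Epcam (51.8 and 24.3 FPKM). Over all tested genes 12.2% were higher and 12.8% lower. Under both other scalings none of either list was 2-fold lower. Only the streak gene Gsc was listed at 0, in the control and at 0 days. The markers below had the largest differences of their lists at 0 days against control or at 6 against 0 days, and their FPKM is given in the control and at 0, 6 and 10 days. Of endoderm genes, Ttr was at 1.07, 15.4, 183 and 356 FPKM and Sox17 at 1.75, 1.87, 39.6 and 43.5 FPKM. Of keratins, Krt18 was at 12.8, 119.5, 743 and 1518 FPKM and Krt7 at 0.0976, 3.83, 139.7 and 260.0 FPKM. Of neural genes, Dach1 was at 0.0159, 15.1, 4.59 and 0.958 FPKM and Fabp7 at 0.890, 1.13, 35.9 and 16.8 FPKM. Of these 6 genes, the endoderm and keratin genes were highest at 10 days, Dach1 at 0 days and Fabp7 at 6 days. The endoderm markers were not all highest at 10 days: Sox7 was at 5.11, 19.6, 5.48 and 3.04 FPKM, and Sparc alone gave 2712 of the 4425 FPKM summed at 10 days. The collagen gene Col3a1 was at 0.00631, 0.123, 20.4 and 42.5 FPKM, the epiblast factor Otx2 at 5.89, 0.447, 6.09 and 4.47 FPKM, and the streak factor T at 0.0392, 0.0176, 5.44 and 0.776 FPKM. Their part in the higher Etv4, Etv5 and Spry4 at 6 days was not tested.

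Other genes of the pathway differed in both directions. Of the FGF ligands 9 of 22 listed were in the table and 4 reached 1 FPKM. Fgf17, a secreted ligand of the Fgf8 subfamily, was at 3.14 FPKM in the control and 0.703, 1.12 and 0.935 FPKM at 0, 6 and 10 days, and was called lower at 0 days (-1.28). Fgf9, a ligand of epithelia and mesenchyme, was at 0.0240, 1.17, 0.539 and 0.468 FPKM, and Fgf11 at 2.21, 7.37, 3.88 and 4.36 FPKM. Both were called higher at 0 days, but Fgf11 belongs to the homologous factors that stay inside the cell and do not act through FGF receptors. Fgf10, a mesenchymal ligand, was at 0.708, 0.567, 1.72 and 1.76 FPKM. At 0 days 2 of the 4 ligands were thus higher and 1 lower, where 12.2% and 12.8% of all tested genes were. No FGF ligand was called between 6 and 0 days, where 8.22% of all tested genes were higher and 4.88% lower.

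Among 9 tested FGF receptors and heparan sulfate cofactors 4 were higher and none lower at 0 days than in the control. Of all tested genes 12.2% were higher and 12.8% lower. In the list 5 were higher under both other scalings, where 14.6% (median-ratio) and 16.0% (upper-quartile) of all tested genes were. At 6 against 0 days 3 were higher and none lower, where 8.22% and 4.88% of all tested genes were. The receptor Fgfr4 was at 2.86 FPKM in the control and 1.20, 6.96 and 9.92 FPKM in the ATRA libraries, with differences of -0.81 at 0 days and 1.86 at 6 against 0 days. Syndecans carry the heparan sulfate chains that FGFs need to bind their receptors. Sdc2 was at 1.66, 14.6, 7.68 and 8.62 FPKM and Sdc1 at 24.7, 12.0, 27.4 and 25.8 FPKM, and Ndst1, which modifies these chains, at 4.17, 12.2, 9.65 and 9.90 FPKM.

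Of 10 tested genes between the receptor and ERK, 1 was higher and 1 lower at 0 days, near the shares of 12.2% and 12.8% over all tested genes. Under upper-quartile scaling 2 were higher and 1 lower, where 16.0% and 8.45% of all tested genes were. None was called at 6 against 0 days. Rps6ka2, an ERK-activated kinase, was the lower one, at 17.2 FPKM in the control and 4.60, 8.31 and 7.22 FPKM at 0, 6 and 10 days. Sos2, which loads RAS with GTP, was the higher one, at 1.41, 5.55, 2.88 and 2.86 FPKM, and its partner Sos1 was at 4.72, 6.11, 3.20 and 3.07 FPKM. RNA levels of the kinases do not show their activity.

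Of 9 other negative regulators tested, none was lower and 1 was higher at 0 days than in the control. Of all tested genes 12.8% were lower and 12.2% higher. Under upper-quartile scaling 3 of the list were higher, where 16.0% of all tested genes were. Dusp10, a phosphatase of the stress kinases p38 and JNK, was the higher one, at 0.575 FPKM in the control and 3.77, 4.91 and 8.86 FPKM at 0, 6 and 10 days. Cblb, a ubiquitin ligase of activated receptors, was at 4.26, 8.42, 6.19 and 6.22 FPKM. Spred2, a Sprouty-related inhibitor, was at 23.3, 18.6, 7.38 and 5.68 FPKM, and Dusp1, a nuclear phosphatase, at 66.8, 49.2, 23.9 and 35.0 FPKM. These 2 were the ones called lower at 6 against 0 days, by -1.23 and -1.01, where 4.88% of all tested genes were lower.

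**Figure D4:**
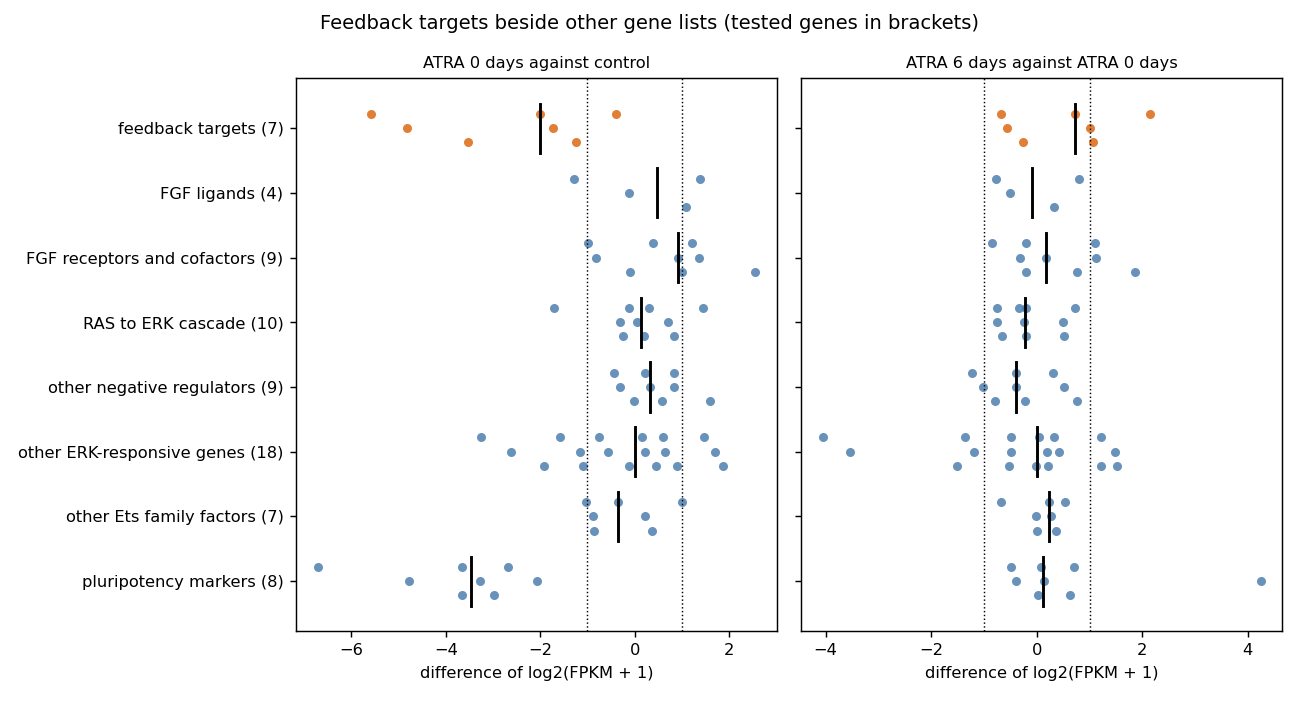
Difference of log2(FPKM + 1) for each tested gene (dots) of the feedback targets (orange) and of 7 other lists (blue), at 0 days against the control (left) and at 6 against 0 days (right); black bars are medians, dotted lines mark 2-fold, and the vertical spread of dots within a row carries no value. The medians on the left are -2.00 for the feedback targets, -3.47 for pluripotency markers and between -0.36 and 0.92 for the others.

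Other ERK-responsive genes differed in both directions. Of 18 tested, 3 were higher and 6 lower at 0 days (median 0.01), where 12.2% and 12.8% of all tested genes were. Under median-ratio scaling 3 were higher and 4 lower, beside 14.6% and 9.48% of all tested genes. Under upper-quartile scaling 4 were higher and 4 lower, beside 16.0% and 8.45%. Egr1, an immediate early transcription factor, was at 129 FPKM at 0 days against 116 FPKM in the control, and Fos was at 72.2 FPKM at 0 days against 46.0 FPKM in the control. Neither was called at 0 days, where Etv4 and Spry4 were at their lowest. At 6 against 0 days Egr1 (6.84 FPKM at 6 days) differed by -4.05 and Fos (5.35 FPKM) by -3.53, while Etv4 and Spry4 were higher. At 10 days Egr1 was at 10.4 FPKM and Fos at 13.0 FPKM.

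Arc and Hbegf were called lower at 0 days (-3.26 and -2.61). Arc, an activity-regulated gene, was at 62.5 FPKM in the control and 5.65, 1.91 and 2.18 FPKM at 0, 6 and 10 days. Hbegf, a ligand of the EGF receptor, was at 49.8, 7.30, 18.4 and 34.3 FPKM. Like Spry4, Hbegf was lowest at 0 days among the 4 libraries. The 3 genes called higher at 0 days were Ier3 (1.88), Ier5 (1.71) and Phlda1 (1.48). Ier3 was at 3.42 FPKM in the control and 15.3, 45.7 and 111.7 FPKM at 0, 6 and 10 days. In all, 4 of the 18 were higher and 5 lower at 6 against 0 days, where 8.22% and 4.88% of all tested genes were.

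Of 7 other Ets family genes tested, none was higher and 1 lower at 0 days, and with other scalings 1 was higher and none lower. Gabpa, which encodes the DNA-binding subunit of GABP, was at 41.1, 19.7, 12.0 and 9.55 FPKM, with a difference of -1.03 at 0 days. Elf1 was at 6.91, 14.8, 17.9 and 21.3 FPKM, and Elf3, an epithelial Ets factor, at 20.8, 24.6, 36.3 and 65.4 FPKM. None of the 7 was called at 6 against 0 days. Of 9 other receptor tyrosine kinases tested, 2 were higher and none lower at 0 days, and 2 were higher and 1 lower at 6 against 0 days. Beside both lists, 12.2% of all tested genes were higher and 12.8% lower at 0 days. At 6 against 0 days these shares were 8.22% and 4.88%. With other scalings those at 0 days were 14.6% and 9.48% (median-ratio) and 16.0% and 8.45% (upper-quartile). Pdgfrb was at 0.577, 4.98, 2.14 and 2.59 FPKM, Erbb2 at 3.12, 9.88, 8.23 and 8.90 FPKM, the collagen receptor Ddr1 at 5.70, 8.31, 31.9 and 43.2 FPKM, and Egfr at 0.795, 0.635, 2.50 and 5.59 FPKM.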

How the data were processed

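The deposited values are FPKM, 1 column per library, per the file headers. Per the submitters' processing notes, the authors used Trimmomatic, TopHat and Cufflinks with mm10; the sources used here do not give versions, annotation, strand use or filters. RNA was total RNA, with oligo(dT) cDNA, per the labels' protocols. The table has 10201 rows and 9997 symbols; rows of 177 repeated symbols were summed.

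Positions and transcript lengths came from GENCODE M21 on mm10, and start windows from RefSeq. Depth is the inverse of the FPKM times kb taken as the worth of a single fragment. That worth is the median of the values between 0.02 and 0.05 in 1396 single-transcript genes of at least 800 nt. The window bounds the estimate whatever the true depth was. Fragments of a gene were estimated at its shortest full-length coding transcript, and errors are Poisson. They cover counting error only.

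There were 6 comparisons with no test. The members and the 13 other lists were chosen with earlier results of these data known, so no pattern is independent support. From each list were named the 2 to 4 genes with the largest differences at 0 days and at 6 against 0 days, with all FGF ligands and receptors at 1 FPKM or more, and the 5 profiles nearest the mean and 2 nearest each member, passing over predicted genes and small RNAs. Some other genes of the lists were also named, among them ones that went the other way. The 8 alternatives are in the closing section. The steps were tested on simulated data. Python 3.11.15, numpy 2.4.6, pandas 2.3.3 and matplotlib 3.10.9 were used.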

Additional observations from a re-analysis of the deposited data

How the results depend on the processing

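No paired analysis was possible because each group has 1 library. The alternatives were pseudocounts of 0.1 and 0.5, no filter or one at 5 FPKM, a 4-fold threshold, scaling by median ratios or upper quartiles, and the highest row of a repeated symbol. Neither filter setting nor the highest row changed a count, median or difference of the set. The filter settings could not, because all 7 genes were above 5 FPKM in the control and a gene's difference does not use the filter. Under upper-quartile scaling 5 of 7 were lower at 0 days against control and 2 were higher at 6 against 0 days. The 4-fold threshold on the log2(FPKM + 1) scale left 3 of 7 lower at 0 days against control and 1 higher at 6 against 0 days. At 10 against 0 days it left 0 higher and 0 lower. With a pseudocount of 0.1 and under upper-quartile scaling, 2 were lower at 10 against 0 days, Dusp6 joining Etv1, where 12.4% and 10.4% of all tested genes were lower. The median at 6 days against control was -2.59 and -2.57 with pseudocounts of 0.1 and 0.5. The median at 0 days against control was -1.83 under median-ratio and -1.75 under upper-quartile scaling, and that at 10 against 0 days was 0.33 under upper-quartile scaling. Among all tested genes called at 0 days against control, 48.9% were higher as deposited, 60.6% with median-ratio and 65.5% with upper-quartile scaling. In the same order these shares were 55.2%, 64.6% and 67.5% at 6 days against control, 53.5%, 63.2% and 58.8% at 10 days against control, 65.5%, 66.4% and 53.9% at 10 against 0 days, and 81.3%, 81.8% and 67.5% at 10 against 6 days. Estimated fragments of 23.8 to 10551 per value give counting errors of 0.974% to 20.5%, and a value resting on 3 fragments is 0.0231 to 0.0830 FPKM; biological variation is not measured.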
